A study of Homo sapiens with 6 samples.

Results

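The E2F transcription factors E2F1 to E2F8 and the pocket proteins RBL1 (also called p107) and RBL2 (also called p130) were followed in DMS53 cells with enforced expression of ONECUT2 (OC2). They are 10 of the 62696 genes of the count files and were chosen by name, with earlier results of these data known. All 10 had enough reads to be tested, among 17307 tested genes. RNA-Seq libraries were made from 3 control samples and 3 samples with OC2 enforced expression (OC2-OE), and the control carried the empty lentiviral vector where OC2-OE carried the vector for OC2. Per the study's methods both vectors were constitutive, encode a green fluorescent protein and were selected with puromycin, and the introduced OC2 is fused to that protein. DMS53 is an established small cell lung cancer (SCLC) line with neuroendocrine (NE) features, so all libraries come from one line. The comparison of OC2-OE with control asks how the make-up of the E2F and pocket protein network differs when OC2 is raised.

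E2F factors bind DNA together with a DP partner and set when the genes of DNA replication are transcribed. E2F1, E2F2 and E2F3 are known as activators, E2F4 and E2F5 mostly act as repressors bound to RBL1 or RBL2, and E2F6, E2F7 and E2F8 repress without a pocket protein. E2F7 and E2F8, the atypical members, bind DNA without a DP partner and turn down genes of the E2F programme late in S phase. In cells that rest, RBL2 or RBL1 with E2F4 or E2F5 and the MuvB core form the DREAM complex, which holds cell cycle genes down. Several E2F genes, as well as RBL1, are themselves E2F targets. SCLC is a tumour in which this pathway is typically released from control by the pocket protein RB1, which is not among the genes followed here.

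The libraries held 16533284 to 19099337 counted read pairs. Levels are given as CPM, the counts of a gene scaled by library size with edgeR's TMM factors. ONECUT2 had a mean of 24.6 CPM in the control and 3944 CPM in the OC2-OE libraries, in the direction of the labels, with reads of the introduced and the endogenous gene in 1 count. Of 12 NE markers all had reads, and their summed level was 7882 to 7954 CPM in control and 7290 to 7396 CPM in OC2-OE libraries, with 8 lower and 3 higher and a median log2 fold change of -0.71. GRP went from 132 to 6.24 CPM and DDC from 503 to 87.3 CPM. SCG2 went from 801 to 2273 CPM and CHGA from 72.2 to 150 CPM. Over all tested genes 28.7% were lower and 27.8% higher. Of 13 immune, stromal and endothelial markers, 6 could be tested, 3 of them higher and 1 lower, and their summed level was 24.4 to 28.5 CPM in control and 33.6 to 37.2 CPM in OC2-OE libraries, most of it COL1A1. CD3E had no count, PTPRC had 0 counts in control and 3 in OC2-OE libraries, and the part of these markers in the results below was not tested. In bulk RNA, fewer cells in a phase of the cell cycle and less RNA per cell cannot be told apart.

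The promoters of 4 members, E2F1, E2F2, RBL1 and E2F3, are shown first, since their RefSeq windows carry letters of the E2F site close to the transcription start. The transcripts of E2F1, E2F2 and RBL1 fell in OC2-OE cells, while that of E2F3 did not pass the test described below. Each window holds 250 bases before the start and 50 from it on, read 5′ to 3′ on the strand of the gene in GRCh38.p14. Capitals mark 4 words of the E2F site, TTTCCCG and TTTCGCG with the related TTTGGCG and TTTGCCG, searched on both strands, where neighbouring words can overlap. The windows are chr20:33686336-33686635 for E2F1, chr1:23531184-23531483 for E2F2 and chr20:37095948-37096247 for RBL1, all on the minus strand, and chr6:20401629-20401928 on the plus strand for E2F3, the first of its 2 windows.
E2F1: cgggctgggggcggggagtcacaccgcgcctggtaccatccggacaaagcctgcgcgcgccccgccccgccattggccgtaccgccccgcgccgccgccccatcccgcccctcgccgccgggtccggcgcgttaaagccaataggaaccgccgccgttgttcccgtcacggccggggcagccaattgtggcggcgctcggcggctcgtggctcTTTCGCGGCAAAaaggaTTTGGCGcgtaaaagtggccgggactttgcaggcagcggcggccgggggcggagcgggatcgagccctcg
E2F2: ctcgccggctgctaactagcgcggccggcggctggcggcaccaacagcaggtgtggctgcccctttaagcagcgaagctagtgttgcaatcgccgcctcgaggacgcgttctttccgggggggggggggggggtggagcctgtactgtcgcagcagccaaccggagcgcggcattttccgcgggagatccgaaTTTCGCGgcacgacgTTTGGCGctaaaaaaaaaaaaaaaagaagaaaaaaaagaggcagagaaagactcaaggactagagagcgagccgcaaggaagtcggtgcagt
RBL1: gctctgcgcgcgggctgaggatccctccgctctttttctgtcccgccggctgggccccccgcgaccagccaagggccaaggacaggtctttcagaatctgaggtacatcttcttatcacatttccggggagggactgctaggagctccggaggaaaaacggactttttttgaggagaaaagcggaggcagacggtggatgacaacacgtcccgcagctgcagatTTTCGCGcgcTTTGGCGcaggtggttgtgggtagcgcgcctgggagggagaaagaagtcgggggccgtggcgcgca
E2F3: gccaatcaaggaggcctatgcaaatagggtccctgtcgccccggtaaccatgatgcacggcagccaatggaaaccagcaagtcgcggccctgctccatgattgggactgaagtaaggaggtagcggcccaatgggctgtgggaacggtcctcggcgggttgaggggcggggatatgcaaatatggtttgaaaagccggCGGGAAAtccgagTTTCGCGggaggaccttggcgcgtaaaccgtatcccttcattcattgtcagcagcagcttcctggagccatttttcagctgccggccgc
In E2F1 the words began 37, 32 and 20 bases before the start, with the first and second overlapping. In E2F2 they began 57 and 42 bases before it, in RBL1 26 and 16, and in E2F3 52 and 39. Windows were found for 8 of the 10 members, and 5 of the 8 genes held at least 1 such word (62.5%), the fifth being E2F6 with words 183 and 78 bases before its start. Of 12264 tested genes with a window, 15.5% held one. The second window of E2F3, chr6:20403364-20403663, held none of these words, nor did the windows of E2F4, E2F7 and RBL2. A search of both strands for ATTGAT, the core letters of a ONECUT site, found none in the windows of the 8 members, against 5.19% of tested genes. The cell cycle homology region TTTGAA, also searched on both strands, was found in E2F3, 65 bases before the start, and in RBL2, 24 bases after it, against 14% of tested genes. Word matches are a description of the sequence and do not show binding.

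In OC2-OE cells, transcripts of 5 of the 10 genes fell, 2 rose and 3 did not pass the test. E2F1, E2F2, E2F7, E2F8 and RBL1 were lower, by 38.1% to 61.7%. E2F5 and RBL2 were higher, by 24.7% and 12%, and E2F3, E2F4 and E2F6 did not pass. Calls are from edgeR's quasi-likelihood test over all tested genes at an adjusted p under 0.001. At this threshold 56.5% of all tested genes were called, 28.7% lower and 27.8% higher, so 7 of 10 is not far from the background. Of all tested genes, 4966 were lower and 4810 higher, but 4427 and 5337 with library size only. With upper-quartile scaling 4521 were lower and 5256 higher. At an adjusted p under 0.05 the count was 8 of 10, with E2F3 added, against 71.4% of tested genes. The groups did not overlap for 7 of the 10 genes, against 73.2% of tested genes. The median log2 fold change of the 10 genes was -0.40, against 0.01 over all tested genes, and 3 of the 10 (E2F2, E2F7 and E2F8) fell by at least 2-fold, against 9.04% of tested genes. E2F2 sat at that limit, and its log2 fold change was -0.95 with library size only, -0.96 with upper-quartile scaling and -0.98 without OC2-OE replicate 3, which leaves 2 of the 10. It also missed the limit, by less, without control replicate 3, without OC2-OE replicate 2 and with at least 10 counts required in every library.

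**Figure D1:**
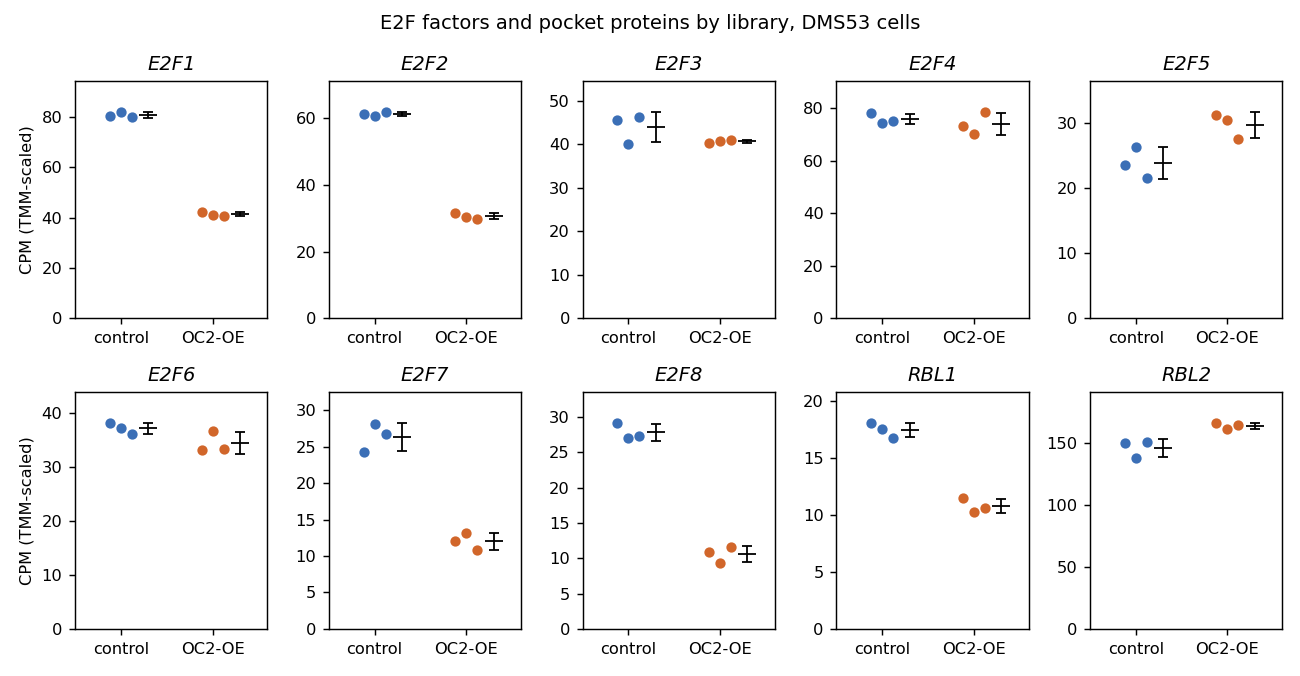
Expression of the 10 genes in each library as TMM-scaled CPM on a linear axis from 0, with control libraries in blue and OC2-OE libraries in orange. Points are single libraries, and the black mark with its bar is the mean and SD (n = 3). For E2F1, E2F2, E2F7, E2F8 and RBL1 the OC2-OE points all lie under the control points, while the libraries of E2F3, E2F4 and E2F6 overlapped.

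Among the activators, E2F1 (ENSG00000101412.13, GRCh38 chromosome 20 from 33675477 to 33686385) had 80.2, 81.9 and 79.8 CPM in control replicates 1, 2 and 3 and 42.4, 41.0 and 40.6 CPM in the OC2-OE replicates. The OC2-OE libraries lay close together and far below the control libraries. Mean levels were 80.7 ± 1.12 CPM in control and 41.3 ± 0.918 CPM in OC2-OE cells (SD, n = 3), a fall of 48.7%. Fitted log2 fold changes are given with their standard error (SE), and that of E2F1 was -0.96 ± 0.045 (SE, adjusted p = 6.29e-41, edgeR). E2F2 (ENSG00000007968.7, chromosome 1 from 23506438 to 23531233) had 61.2, 60.8 and 61.9 CPM in control and 31.5, 30.4 and 29.7 CPM in OC2-OE libraries. It fell as E2F1 did, with a gap between the groups many times the spread within them. Its log2 fold change was -1.0 ± 0.051 (SE, adjusted p = 1.57e-37, edgeR). E2F3 (ENSG00000112242.16, chromosome 6 from 20401879 to 20493714) had 45.7, 40.1 and 46.3 CPM in control and 40.4, 40.7 and 40.9 CPM in OC2-OE libraries. Control replicate 2 was lower than all OC2-OE libraries, so the groups overlapped. The log2 fold change of E2F3 was -0.12 (95% interval -0.22 to -0.01, adjusted p = 0.0437, edgeR), which did not pass 0.001. Without control replicate 2 it was -0.18 (adjusted p = 0.00419, edgeR), and with library size only or upper-quartile scaling it was -0.065 or -0.073 (adjusted p = 0.268 and 0.212, edgeR). A drop of the size measured for E2F1 or E2F2 lies outside the 95% interval of E2F3. Intervals of this kind are for 1 gene at a time and rest on the spread between these libraries.

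Among the pocket-bound repressors, E2F4 (ENSG00000205250.9, chromosome 16 from 67192155 to 67198918) had 78.1, 74.5 and 75.0 CPM in control and 73.2, 70.1 and 78.5 CPM in OC2-OE libraries. The highest and the lowest value both belonged to OC2-OE libraries. The log2 fold change was -0.04 (95% interval -0.12 to 0.04, adjusted p = 0.421, edgeR). Its sign turned with library size only, with upper-quartile scaling and without OC2-OE replicate 2, where it was 0.013, 0.0053 and 0.0024. Library size only and upper-quartile scaling moved all tested genes by a median of 0.051 and 0.043 on the log2 scale. E2F5 (ENSG00000133740.11, chromosome 8 from 85177154 to 85217158) had 23.5, 26.4 and 21.6 CPM in control and 31.2, 30.5 and 27.4 CPM in OC2-OE libraries. The groups did not overlap, but the nearest libraries, control replicate 2 and OC2-OE replicate 3, were close to each other. Its log2 fold change was 0.32 ± 0.066 (SE, adjusted p = 1.00e-05, edgeR). Without control replicate 3 the adjusted p was 0.00107 and the log2 fold change 0.25, so this call rests on that library, and over all alternatives the adjusted p ran from 6.10e-07 to 0.00107.

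The repressors that act without pocket proteins split. E2F6 (ENSG00000169016.17, chromosome 2 from 11444375 to 11466177) had 38.2, 37.2 and 36.0 CPM in control and 33.1, 36.7 and 33.4 CPM in OC2-OE libraries. OC2-OE replicate 2 lay within the control range and the other two lay below it. The log2 fold change was -0.11 ± 0.056 (SE, adjusted p = 0.0640, edgeR), which did not pass, and it was -0.063 with library size only and -0.071 with upper-quartile scaling. E2F7 (ENSG00000165891.16, chromosome 12 from 77021248 to 77065569) had 24.2, 28.1 and 26.7 CPM in control and 12, 13.2 and 10.9 CPM in OC2-OE libraries. All OC2-OE libraries were far below the lowest control library. The log2 fold change of E2F7 was -1.13 ± 0.079 (SE, adjusted p = 1.29e-26, edgeR), from 1357 and 657 counts in all. E2F8 (ENSG00000129173.13, chromosome 11 from 19224063 to 19241620) had 29.2, 27.0 and 27.3 CPM in control and 10.9, 9.41 and 11.6 CPM in OC2-OE libraries. It showed the lowest log2 fold change of the 10 genes, -1.39 ± 0.079 (SE, adjusted p = 2.08e-33, edgeR). Its 95% interval, -1.54 to -1.23, overlapped that of E2F7, -1.28 to -0.97, and the difference between the pair was not tested.

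RBL1 and RBL2 moved in opposite directions. RBL1 (ENSG00000080839.12, chromosome 20 from 36996349 to 37095997), which rises in cycling cells, had 18, 17.6 and 16.8 CPM in control and 11.5, 10.3 and 10.6 CPM in OC2-OE libraries. The groups were well apart, and the log2 fold change was -0.69 ± 0.087 (SE, adjusted p = 4.40e-12, edgeR) on 904 and 592 counts. RBL2 (ENSG00000103479.17, chromosome 16 from 53433977 to 53491648), the pocket protein that predominates in resting cells, had 150, 138 and 151 CPM in control and 166, 161 and 164 CPM in OC2-OE libraries. All OC2-OE libraries were above all control libraries, though by little, and control replicate 2 was the lowest. The log2 fold change of RBL2 was 0.16 ± 0.031 (SE, adjusted p = 1.90e-06, edgeR), and over all alternatives it ran from 0.12 to 0.21. Without control replicate 2 its adjusted p was 0.000797 (edgeR), close to the threshold. The rise was small, as only 24.2% of tested genes had a smaller absolute change. The labels number the libraries as replicates and the study calls them independent experiments, and if they do not come from separate cultures the p-values measure only the spread between them. Read pairs were counted by strand, and no exon of the 10 genes overlaps an exon of another gene on its strand. Among annotated copies of the members, E2F3P2 had 26 and 21 counts in the 2 groups, E2F3P1 had 1 and 0, and the other 5 had none.

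**Figure D2:**
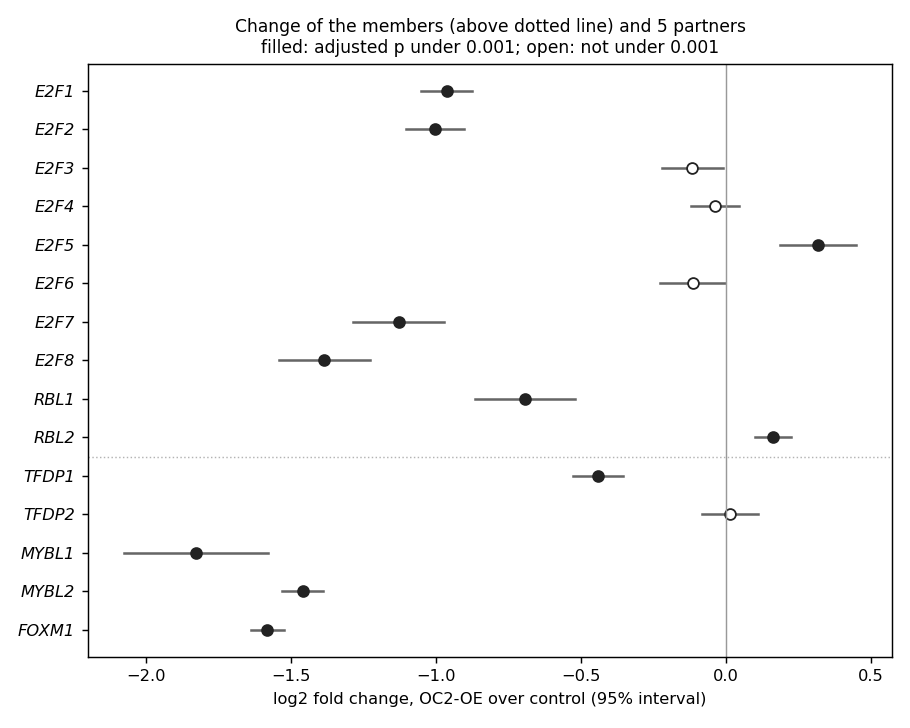
Log2 fold change of the 10 genes, above the dotted line, and of 5 partners, below it, on the x axis, with 95% intervals as bars. Filled points passed an adjusted p of 0.001 and open points did not. E2F1, E2F2, E2F7, E2F8 and RBL1 lie at -0.69 or lower, E2F3, E2F4 and E2F6 between -0.12 and -0.04, and E2F5 and RBL2 above 0.

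To compare levels between genes, CPM was divided by the summed exon length of each gene in kilobases, which overstates the length of the transcript in use. The excess can differ between genes, so the order of the genes and the shares below depend on these lengths. On this scale, E2F1 had the highest level of the 10 genes in control cells, 29.99 ± 0.417 CPM per kilobase (SD, n = 3), followed by E2F4 at 21.1 ± 0.547 and RBL2 at 18.03 ± 0.892. E2F2 stood at 11.2, E2F6 at 9.13, E2F3 at 8.49, E2F8 at 6.74, E2F7 at 4.19, E2F5 at 3.97 and RBL1 at 2.93 CPM per kilobase. In this order E2F6 and E2F3 overlapped between libraries, as did E2F7 and E2F5, and the other neighbours did not. In OC2-OE cells, E2F4 at 20.6 ± 1.19 and RBL2 at 20.2 ± 0.315 CPM per kilobase stood first and overlapped, and E2F1 came next at 15.4 ± 0.341. E2F2, above E2F6 and E2F3 in control cells, stood below them at 5.6, and E2F5 passed both atypical members, with 4.95 CPM per kilobase against 2.58 for E2F8 and 1.91 for E2F7. RBL1 stayed last at 1.81, where it overlapped E2F7.

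**Figure D3:**
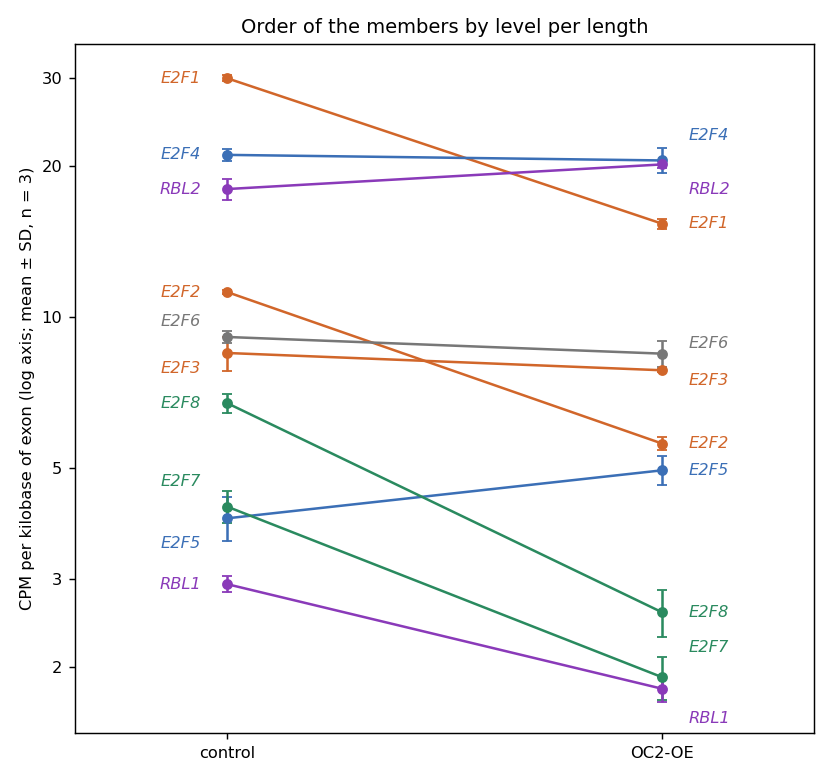
Level per length of the 10 genes in control and OC2-OE cells, as mean ± SD (n = 3) of TMM-scaled CPM per kilobase of exon on a log axis, with activators in orange, E2F4 and E2F5 in blue, E2F6 in grey, atypical members in green and pocket proteins in purple. The line of E2F1 falls from 29.99 to 15.4 and crosses those of E2F4 and RBL2, which stay between 18.03 and 21.1.

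The make-up of the E2F transcripts shifted with these changes, and it is given as a description with no test. The summed level of E2F1 to E2F8 was 94.8 ± 0.876 CPM per kilobase in control and 67.3 ± 0.545 in OC2-OE cells (SD, n = 3). E2F1, E2F2 and E2F3 made up 52.0%, 52.1% and 53.1% of this sum in control replicates 1, 2 and 3 and 43.4%, 43.0% and 42.1% in the OC2-OE replicates. E2F4 and E2F5 made up 26.8%, 26.5% and 26.0% in control and 37.8%, 36.9% and 39.1% in OC2-OE libraries, although the level of E2F4 itself did not pass the test. E2F7 and E2F8 held 11.5% ± 0.114 in control and 6.67% ± 0.0907 in OC2-OE cells (SD, n = 3). The ratio of activators to E2F4 and E2F5 was thus 1.94 to 2.04 in control and 1.08 to 1.17 in OC2-OE libraries, and the ratio of E2F7 and E2F8 to E2F6 was 1.16 to 1.22 and 0.485 to 0.558. For RBL1 and RBL2 alone the sum was 21.0 ± 0.873 CPM per kilobase in control and 22 ± 0.412 in OC2-OE cells (SD, n = 3), a difference close to the spread. RBL2 made up 85.2% to 86.9% of this pair in control and 91.4% to 92.0% in OC2-OE libraries. RNA levels do not show how much of each protein is present or bound to another.

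**Figure D4:**
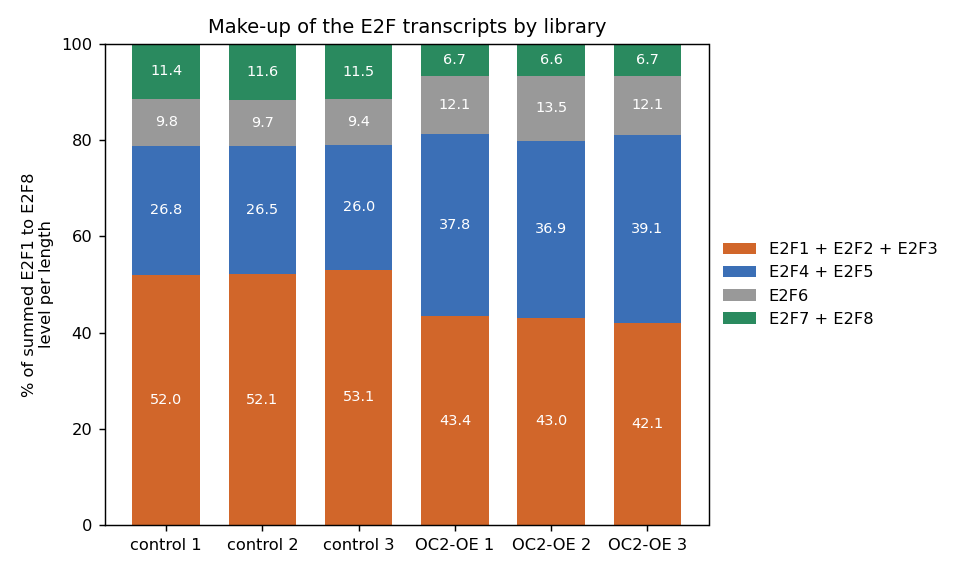
Share of the summed level per length of E2F1 to E2F8 that each class held in each library, in percent. The orange part (E2F1, E2F2 and E2F3) takes 52.0% to 53.1% of the control and 42.1% to 43.4% of the OC2-OE libraries, and the blue part (E2F4 and E2F5) 26.0% to 26.8% and 36.9% to 39.1%.

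Of the partners of these proteins, the DP subunit TFDP1 had 69.4, 71.5 and 72.6 CPM in control and 51.4, 53.2 and 52.6 CPM in OC2-OE libraries, and its log2 fold change was -0.44 ± 0.044 (SE, adjusted p = 1.02e-16, edgeR). TFDP2, its relative, had 50.2 ± 2.62 and 50.8 ± 0.578 CPM (SD, n = 3) and did not pass (log2 fold change 0.01, 95% interval -0.08 to 0.11), and TFDP3 had no count. On a list of 9 genes of the MuvB core and its partners, 6 fell, 0 rose and 3 did not pass, with a median log2 fold change of -0.35, and over all tested genes 28.7% fell and 56.5% were called. The factors that take the place of E2F4 and the pocket protein on MuvB in dividing cells had the largest falls on this list. MYBL2 (B-MYB), itself an E2F target, had 192, 193 and 180 CPM in control and 71.7, 65.1 and 68.3 CPM in OC2-OE libraries, and its log2 fold change was -1.46 ± 0.035 (SE). FOXM1, which joins MuvB in G2, fell from 320 ± 3.60 to 107 ± 3.84 CPM (SD, n = 3), or by 1.58 on the log2 scale. MYBL1, the relative of MYBL2, had a log2 fold change of -1.83 on 645 and 192 counts. Of the MuvB core itself, LIN9 (-0.89) and LIN54 (-0.35) fell, while LIN37 (0.31), LIN52 (0.02) and RBBP4 (-0.06) did not pass. DYRK1A, the kinase that promotes assembly of DREAM, had a log2 fold change of -0.31.

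Cyclins and their kinases release E2F factors by phosphorylating pocket proteins, and CDK inhibitors hold them back. On a list of 15 such genes, 10 fell, 3 rose and 2 did not pass, with a median log2 fold change of -0.83, where 28.7% of tested genes fell and 27.8% rose. Of the cyclins and kinases, CCND1, CCND3, CDK4, CCNE2, CDK2 and CCNA2 fell, CCND2 and CDK6 rose and CCNE1 did not pass. Of the inhibitors, CDKN1A, CDKN1C, CDKN2C and CDKN2D fell, CDKN2B rose and CDKN1B did not pass. The list pools genes that act in opposite ways, so its count and median do not show which way pocket protein control moved. CCNA2, the cyclin of S and G2 phase and an E2F target, fell from 110 ± 3.33 to 23.1 ± 1.74 CPM (SD, n = 3). CDKN2C, an inhibitor of CDK4 and CDK6, fell from 45.1 ± 0.837 to 17.4 ± 1.04 CPM (SD, n = 3), and CDKN2B, another inhibitor of that family, rose from 4.27 ± 0.437 to 13.4 ± 0.958 CPM (SD, n = 3). CDK6 rose by 0.44 on the log2 scale. On a list of 8 genes that control the breakdown of E2F and cell cycle proteins, by ubiquitin ligases and by enzymes and inhibitors that act against them, 7 fell (against 28.7% of tested genes) and 1 did not pass, with a median of -0.80. Of those that act against breakdown, the APC/C inhibitor FBXO5 and the deubiquitinase UCHL5 (-0.57) fell, and the deubiquitinase USP11 (-0.04) did not pass. CCNF, the F-box cyclin that targets activator E2Fs, had a log2 fold change of -1.91, and CDC20, an activator of the APC/C ligase, of -2.55.

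The G1/S genes that E2F factors act on moved mostly one way. Of 53 G1/S genes known as E2F targets, 50 fell, 0 rose and 3 did not pass, 94.3% against 28.7% of tested genes. The median log2 fold change was -0.88, and 19 fell by at least 2-fold, against 9.04% of tested genes. A link between these falls and those of single E2F genes was not tested. GINS2, a subunit of the replicative helicase, fell from 164 ± 2.98 to 37.4 ± 0.972 CPM (SD, n = 3), with an adjusted p of 7.06e-82 by edgeR. RRM2, the small subunit of ribonucleotide reductase, had a log2 fold change of -1.53. The exceptions were the uracil glycosylase UNG (0.06), the mismatch repair gene MSH6 (0.05) and the dUTPase DUT (-0.16). The summed level of the list was 5553 to 5628 CPM in control and 3134 to 3214 CPM in OC2-OE libraries. Of 45 genes of the list with a promoter window, 30 held an E2F word (66.7%), against the 15.5% of tested genes. The list was made of known E2F targets, so this share can follow from that choice, and its link to the falls was not tested. Among genes with a window, 4 of 7 on the MuvB list held an E2F word (57.1%). On the list of cyclins, kinases and inhibitors it was 1 of 10 (10%).

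The fall was deeper in genes of G2 and M phase, which MuvB reaches with B-MYB and FOXM1. All 35 on a list of them fell, 34 by at least 2-fold (against 9.04% of tested genes), with a median log2 fold change of -2.04 and a range from -2.75 to -0.96. PLK1, a mitotic kinase, fell from 115 ± 2.23 to 17 ± 0.512 CPM (SD, n = 3), and KIF20A, a kinesin of cytokinesis, from 142 ± 4.46 to 22.2 ± 1.61 CPM (SD, n = 3). CKAP2, a spindle protein, moved least, with -0.96. The letters TTTGAA stood in the windows of 21 of 30 of these genes (70.0%), against 14% of tested genes. An E2F word stood in 4 of the 30 (13.3%). The list was made of genes known to be bound by MuvB, so the share with TTTGAA can follow from that choice. The summed level of this list was 4177 to 4304 CPM in control and 1072 to 1077 CPM in OC2-OE libraries, and the part of cell cycle phase in the changes of the E2F and pocket protein genes was not tested.

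Further lists hold genes tied to E2F1 or E2F6, and they are read against the 28.7% of tested genes that fell, the 27.8% that rose and the 56.5% called in all. On a list of 11 apoptosis genes linked to E2F1, 5 rose, 4 fell and 2 did not pass, with a median log2 fold change of -0.04. TP73, a relative of p53 and direct E2F1 target, fell from 20.7 ± 2.18 to 9.88 ± 0.494 CPM (SD, n = 3), and BCL2L11 (BIM) had a log2 fold change of -0.57. BBC3 (PUMA) rose from 8.01 ± 0.982 to 17.4 ± 1.01 CPM (SD, n = 3) and CASP8, an initiator caspase, by 0.64 on the log2 scale. Of 12 genes of the E2F6 complex PRC1.6, a Polycomb assembly, 5 fell, 3 rose and 4 did not pass, a share of calls near that of all tested genes, with a median of -0.16. HDAC2 and L3MBTL2 had log2 fold changes of -0.45 and -0.34, and the ubiquitin ligases RNF2 and RING1 of 0.44 and 0.38. Of 12 germline genes known to be held down through E2F6, 6 could be tested, and 5 of these fell while 1 did not pass, with a median of -0.96. SMC1B, a meiotic cohesin subunit, fell from 15.7 ± 2.02 to 7.72 ± 0.302 CPM (SD, n = 3), and STK31 from 32.5 ± 0.442 to 17.4 ± 0.200 CPM (SD, n = 3). The 6 untested genes of this list had few or no counts, and without control replicate 1 only 3 of the list were called.

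**Figure D5:**
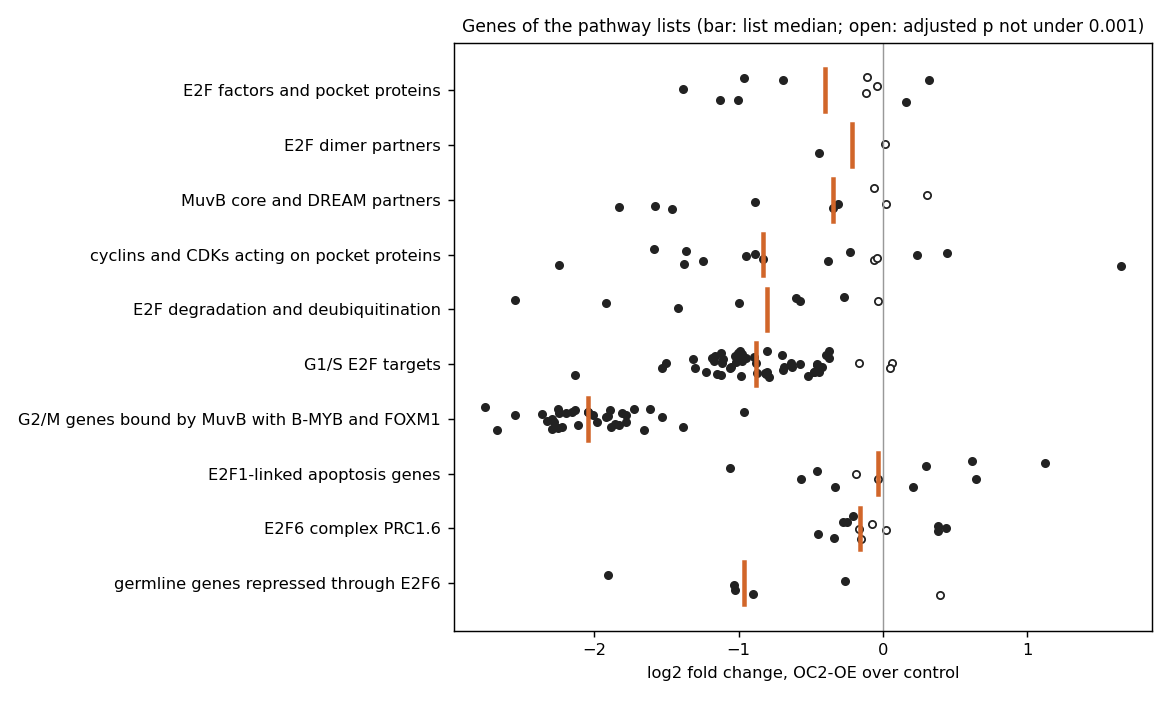
Log2 fold change of each tested gene of the pathway lists on the x axis, one list per row, with the list's median as an orange bar. Filled points passed an adjusted p of 0.001 and open points did not, and the vertical spread within a row has no meaning. The medians are -0.40 for the E2F and pocket protein genes, -0.88 for G1/S targets and -2.04 for G2/M genes.

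The gene nearest in pattern is given for 9 of the members, from a search among 11188 other genes with an average log2 CPM of at least 3, by the root mean square difference of centred log2 CPM over the 6 libraries. With 2 groups of 3 libraries this mostly finds genes with a like fold change. E2F2 lay nearest to MCM2, a subunit of the replicative helicase, at 0.0236, and E2F7 to DBF4, the activator of the CDC7 kinase, at 0.0568. E2F1 lay nearest to the cytoskeletal gene SMTN at 0.0210, E2F8 to the mitotic kinase NEK6 at 0.0486 and RBL1 to CHN1 at 0.0267. RBL2 lay nearest to RPRD1A at 0.0107. For the 3 genes that did not pass the test, the nearest were TAF3 for E2F3 at 0.0251, ZNF273 for E2F4 at 0.0206 and RTCB for E2F6 at 0.0175.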

How the data were processed

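RNA was sequenced from DMS53 cultures, and the authors deposited raw counts of read pairs, not normalized, on GRCh38 with the 62696 genes of GENCODE release 42, made per the file headers with featureCounts version 1.6.0 on exons, with strand and pairs taken into account. STAR version 2.7.9a is named in the submitters' processing notes. Pairs that map to several places are not counted by default, which lowers genes with near-identical copies. Symbols were matched for 62625 identifiers.

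Counts were analysed in R version 4.3.3 with edgeR version 4.0.16. Libraries were scaled by TMM, filterByExpr kept 17307 genes, and these entered the quasi-likelihood test (robust, two-sided, no replicate term) with Benjamini-Hochberg adjustment over all of them and the study's threshold of 0.001. Standard errors were taken from the log2 fold change and its F statistic. The procedure was tested on simulated data. All 10 members passed the filter. The depth, 16533284 to 19099337 counts per library, limits the precision of genes with few counts, whose counts are given. The labels number replicates 1 to 3 in each group and the study calls them independent experiments.

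The members and the gene lists were chosen with earlier results of these data known, and the lists were written from general knowledge. The named genes are the 10 members, ONECUT2, TFDP1, TFDP2, MYBL1, MYBL2 and FOXM1, on each list up to 2 rising and 2 falling genes, by size, if under 0.001, not overlapping between groups and with a mean log2 CPM of 3 or more, and for each member the gene nearest in pattern, of which 1 is not reported here. Other genes named were chosen after their values were seen. Promoter windows are from RefSeq on GRCh38.p14, and the motifs were also chosen after the values were seen. The alternatives were DESeq2 size factors, library size only, upper quartile, the Wald test of DESeq2 version 1.42.0, voom of limma version 3.58.1, 2 other filters on low counts, ONECUT2 left out, a replicate block, each library left out, and 2 other thresholds.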

Additional observations from a re-analysis of the deposited data

How the results depend on the processing

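The 10 E2F and pocket protein genes gave 7 calls under each other scaling, test and filter that was tried, and from 6 to 7 when libraries were left out one by one. The exceptions were an adjusted p under 0.05, with 8 calls, E2F3 being added, and a minimum absolute log2 fold change of 1, with 3, for E2F2, E2F7 and E2F8. The last setting left 2999 of all tested genes, and by list 0 dimer partners, 3 MuvB genes, 6 cyclins, kinases and inhibitors, 3 genes of protein breakdown and deubiquitination, 19 G1/S genes, 2 apoptosis genes, 0 genes of PRC1.6, 3 germline genes and 7 NE markers. The germline list gave 3 calls with the DESeq2 Wald test and 3 to 5 when single libraries were left out, and the immune and stromal list gave 1 with at least 10 counts in every library. The log2 fold change of E2F4 turned to 0.013 with library size only and 0.0053 with upper-quartile scaling, and lay between -0.076 and 0.0024 when single libraries were left out. Library size only and upper-quartile scaling moved all tested genes by a median of 0.051 and 0.043 on the log2 scale. The cause of the other changes was not tested. Deviations of same-numbered libraries correlated at -0.0044, 0.019 and 0.015, and those of differently numbered ones at -0.022 to 0.0064. Values this near 0 can come from counting noise, so they do not show whether the samples were paired. The replicate block gave 9642 calls among all tested genes, 7 of them members. Depth limits RBL1, with 904 and 592 counts and the widest interval of the 10 genes.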
